A study of Mus musculus with 4 samples.

Results

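Among the genes of cultured mouse shoulder capsule fibroblasts that lack the microRNA miR-26a, 104 were lower in both transfected cultures than in the untransfected culture, whichever of the oligonucleotides had been transfected. The set held complement and acute-phase genes (Cfb, C3, C4b, C1s1, Hp, Lbp), chemokines (Cxcl5, Ccl5), matrix genes (Mmp3, Lum, Prelp, Has2) and signals such as Inhbb, Hgf and Sfrp2. The members were selected on the values described here: the authors' normalized counts had to give a log2 ratio to the untransfected knockout library of -0.4 or less after the negative control and after the mimic, with a pseudocount of 1. The ratios also had to differ by less than 0.4, and the normalized count in the untransfected knockout library had to be at least 50. Of the 16416 genes listed, 11469 reached that count and are called measured below, and 111 of them met the limits. Saa3 and 6 genes with clone or predicted names were left out by name. The share of 0.968% of measured genes that met the limits, given below, includes them. All 104 members are protein-coding and were matched to RefSeq.

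Complement is a cascade of plasma proteins that tags microbes and debris, and fibroblasts make several of its components locally. Acute-phase proteins such as haptoglobin and lipopolysaccharide-binding protein are made mainly by the liver, and stromal cells also make some of them when exposed to inflammatory cytokines. Fibroblasts of the joint capsule build and remodel the collagen-rich matrix around the joint and release proteases, proteoglycans, hyaluronan and growth factors. A double-stranded RNA carried into a cell by a cationic lipid can act on transcripts that its seed pairs with, and the lipid and the RNA can each also act on a cell without regard to sequence. A negative-control siRNA with no intended target is transfected alongside for that reason.

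The study examined miR-26a in a mouse model of frozen shoulder, in which a shoulder is immobilized. Synovial fibroblasts had been grown out of shoulder joint capsule, 1 week after immobilization, from C57BL6/J wild-type or miR-26a -/- mice and were used at passage 2. There were 4 groups: untransfected wild-type cells, untransfected knockout cells, knockout cells that received the commercial Silencer Negative Control siRNA, and knockout cells that received the miR-26a mimic. Each oligonucleotide was given at 10 nM for 24 h with Lipofectamine RNAiMax, and the labels give neither the number or age of the animals nor the handling of the untransfected cells during that time. Each group was 1 library, with no replicate, so no difference below carries a test or a p-value, and no library had received the lipid alone, so that lipid and RNA cannot be told apart.

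The libraries held between 17598763 and 19392655 estimated counts. All 17 fibroblast markers of a fixed list were measured, with a summed TPM, a level corrected for transcript length and library size, of 24797 in the wild-type library and between 14738 and 16563 in the knockout libraries. All 20 macrophage markers were measured as well, with sums of 23777 TPM in the wild-type and between 33745 and 35024 TPM in the knockout libraries, so that these cultures labelled as fibroblasts also carried transcripts of macrophage markers. Of the macrophage markers 0 were members, and of the fibroblast markers 1 was, Lum. Of all measured genes 0.968% met the limits, so that 0 or 1 in lists of this size is near the background. Markers of T, B and mast cells summed to at most 0.59 TPM in any library. In such bulk cultures fewer cells of a type and less RNA per cell cannot be told apart.

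The mimic is shown because its guide and passenger seeds set the sites looked for in the members, and capitals mark the seed, bases 2 to 8 from the 5' end. Both strands are as the labels give them, with the RefSeq mature sequence of the passenger for comparison.
mimic guide strand: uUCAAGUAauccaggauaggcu
mimic passenger strand: cCUAUUCUugguuccuugcacg
mmu-miR-26a-1-3p: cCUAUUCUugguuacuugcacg
The guide is identical to RefSeq mmu-miR-26a-5p. The passenger differs from mmu-miR-26a-1-3p by A14C, with the RefSeq base first and positions counted from the 5' end. No sequence of the negative control is given in the labels.

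The median log2 ratio to the untransfected knockout library was -0.62 over the members after the negative control and -0.57 after the mimic, against 0.00 over all measured genes in each case. These ratios chose the members and are a description. They ranged from -1.27 (Alpl) to -0.41 (Syt11) after the negative control and from -1.26 (Alpl) to -0.41 (Arhgef28) after the mimic. A ratio of -0.4 or less was met by 5.50% of measured genes after the negative control and by 4.38% after the mimic, and 0.968% met all limits. Both ratios have the untransfected knockout library as their denominator, so a high value in that library lowers both. With the signs turned and names left out in the same way, 63 of the 11469 measured genes were higher in both transfected libraries.

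**Figure D1:**
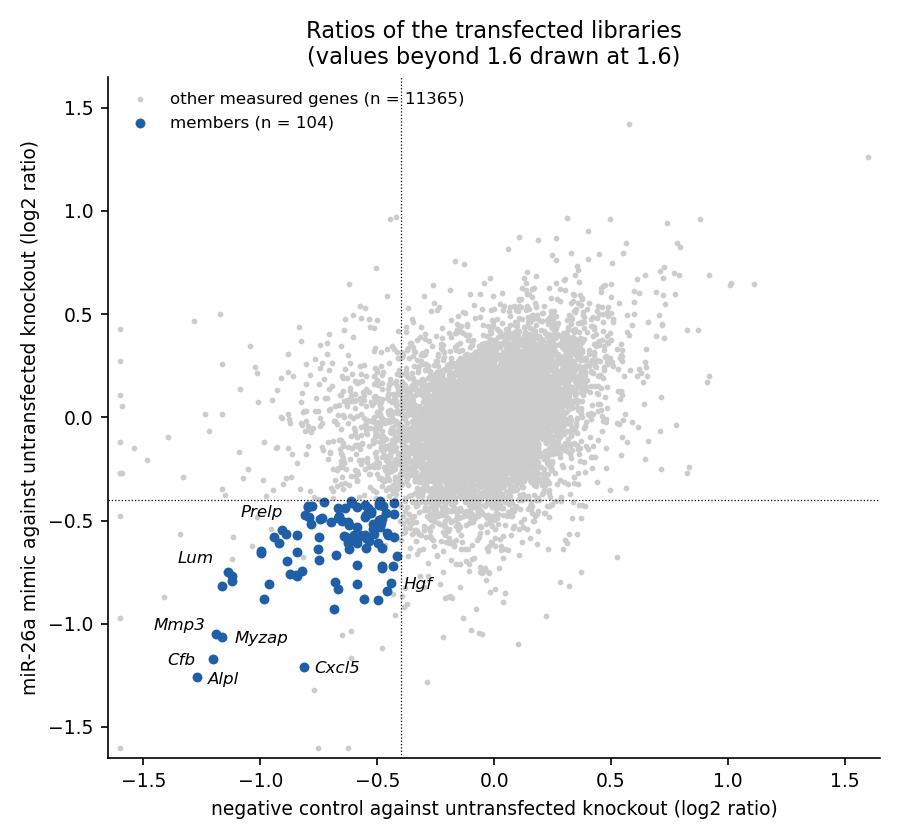
Each point is a measured gene, with the log2 ratio of the negative-control library to the untransfected knockout library on the x axis and that of the mimic library on the y axis. Blue points are the 104 members, which lie left of and below the dotted lines at -0.4 by choice, and Alpl, Cfb, Mmp3, Myzap and Cxcl5 lie lowest.

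Counting error was set beside each ratio as an exact 95% interval from the estimated counts, and these intervals cover no variation between cultures. The rule chose the members on the same libraries, and both intervals share the untransfected knockout count. The numbers of members given here are thus largely set by the rule and are a description. In 88 members both intervals lay below 0, and in 17 both lay below -0.4, among them Cfb, Mmp3, Lbp, C4b, Lum, Prelp, Inhbb, Gas1 and Sod3. The other 16, which include Hoxa5, Prdm6, Mxd3 and Adamts15, had at least 1 interval that reached 0. At least 2-fold lower in both transfected libraries were 4 members, Alpl, Cfb, Mmp3 and Myzap. The members just inside the limit were Arhgef28, Zfp354c and Cnrip1, whose smaller drop was -0.41, and the genes just outside it were Hcfc1r1, Ccdc142 and Atl1 at -0.40.

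Members were mostly genes of low count. Their median normalized count in the untransfected knockout library was 141, against 616 over all measured genes, and their median level was 7.49 TPM against 23. Of genes with a count from 50 up to 100, 3.54% were members and 2.47% were higher in both transfected libraries by the same limits. From 100 up to 200 these shares were 2.35% and 0.835%. Among genes of 1000 or more, 13 of 3968 were members and 13 were higher, 0.328% each. In the classes between, from 200 up to 500 and from 500 up to 1000, 18 and 9 genes were members and 9 and 7 were higher.

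**Figure D2:**
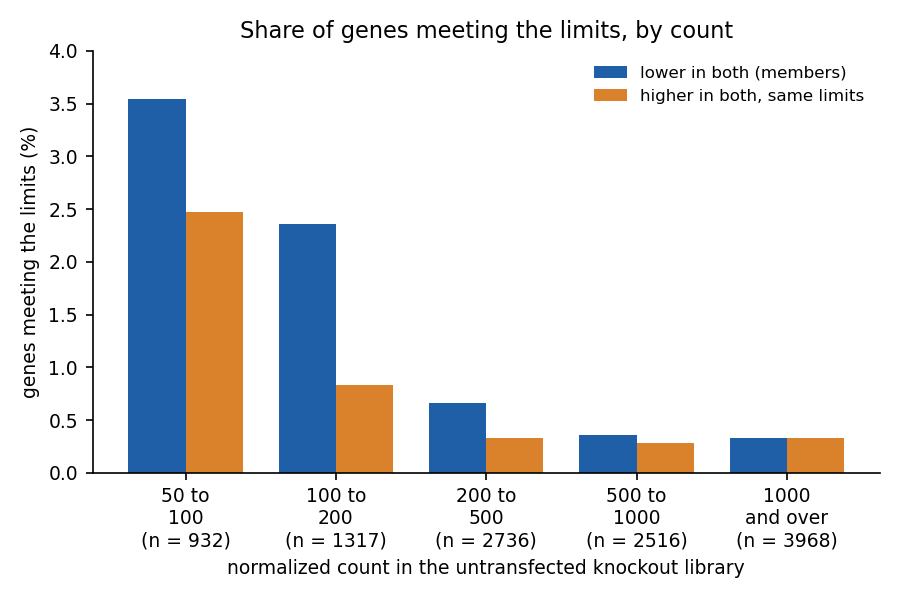
Bars give the percentage of measured genes, by their normalized count in the untransfected knockout library, that were lower (blue) or higher (orange) in both transfected libraries under the same limits. The blue bar falls from 3.54% in the lowest class to 0.328% in the highest, where it equals the orange bar.

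Complement and acute-phase genes, in a list made after the members were known, supplied 6 members of 18 measured. Saa3, also among the 18, met the limits but was left out by name. Of all measured genes 0.968% met the limits, with such names included. Cfb, complement factor B of the alternative pathway (Entrez 14962, chr17:34856374-34862514 in GRCm38.p6), had a normalized count of 472 in the wild-type library, 265 in the untransfected knockout, 115 after the negative control and 117 after the mimic. The transfected libraries were nearly equal and stood at 43.3% and 44.2% of the untransfected one, while the wild type was the highest of the 4. The log2 ratios were -1.20 (counting interval -1.53 to -0.89) and -1.17 (-1.50 to -0.86).

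C3, the component on which all complement pathways converge, was at 386 in the wild-type, 693 in the untransfected knockout, 402 after the negative control and 485 after the mimic. Here the untransfected knockout stood alone at the top, and the wild type lay below both transfected libraries. C4b, the fourth component, was at 6011, 1598, 1063 and 1105 in the same order, with log2 ratios of -0.59 and -0.53. C1s1, a serine protease of the C1 complex, was at 4345, 2203, 1500 and 1641. For both of these the wild type was the highest library, the untransfected knockout came next, and the transfected libraries were close to each other. Counts of C4b and C1s1 include decimals, which can arise where reads are shared among genes, so their levels are less certain.

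Hp, haptoglobin, which binds free haemoglobin, was at 691 in the wild-type library, 154 in the untransfected knockout, 95.1 after the negative control and 80.3 after the mimic. Lbp, which carries lipopolysaccharide to its receptor, was at 1520, 429, 238 and 273 in that order. Both thus had the wild type far above the knockout libraries and the transfected pair at the bottom.

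The list was put together after the members were known, so its counts and medians are a description. Of its 18 measured genes 9 were lower by 0.4 or more after the negative control and 8 after the mimic. Of all measured genes 5.50% and 4.38% were. By the same limit 0 of the 18 were higher in either, and the share of measured genes that were higher was not computed. The medians were -0.36 and -0.35, against 0.00 over all measured genes. Saa3, an acute-phase apolipoprotein that was left out by name, was at 22.8 in the wild-type, 353 in the untransfected knockout, 61.0 after the negative control and 79.3 after the mimic. The C1q chains, abundant in macrophages, were not among the members, with C1qa at log2 ratios of 0.06 and -0.05, C1qb at -0.08 and -0.19, and C1qc at 0.15 and 0.04. Serping1, the C1 inhibitor, was at -0.53 and -0.34 and missed the limit after the mimic.

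**Figure D3:**
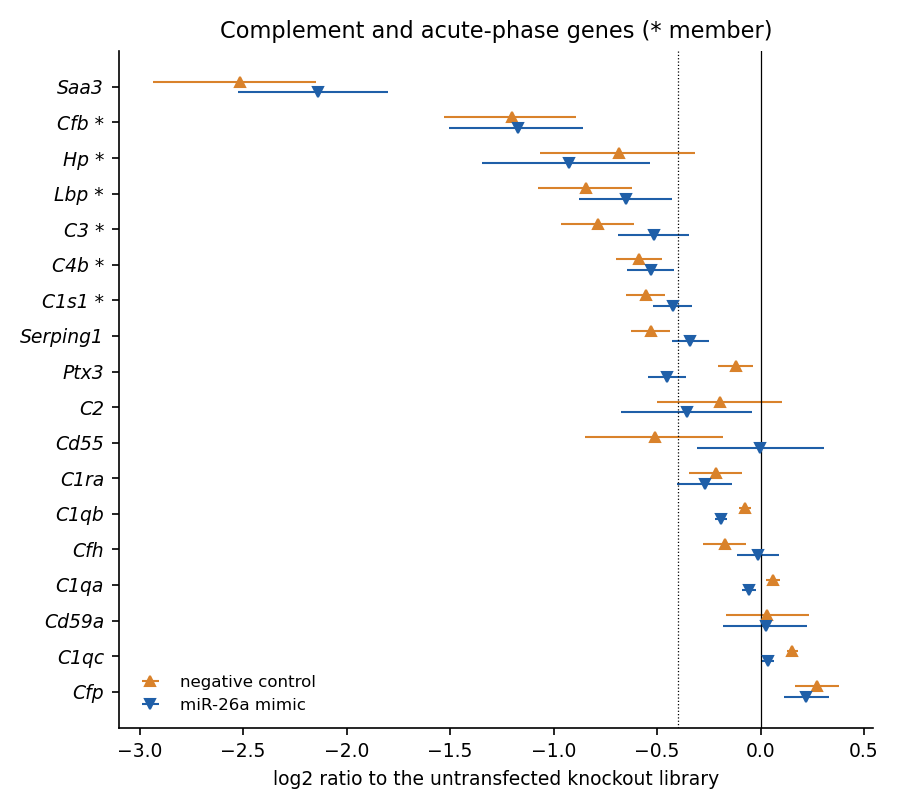
Log2 ratios of the 18 measured complement and acute-phase genes to the untransfected knockout library, after the negative control (orange) and after the mimic (blue), with bars for the exact 95% counting interval. Members, marked with an asterisk, lie left of the dotted line at -0.4 by choice, the C1q chains lie near 0, and Saa3 lies lowest at -2.51 and -2.14.

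Chemokines were represented by Cxcl5 and Ccl5. Cxcl5, which attracts neutrophils, had a normalized count of 400 in the wild type, 194 in the untransfected knockout, 110 after the negative control and 83.3 after the mimic. Ccl5, which attracts T cells and monocytes and is also induced by interferon, was at 8.30, 69.5, 31.4 and 39.7 in that order. The untransfected knockout exceeded both transfected libraries for each, but the wild type was the highest library for Cxcl5 and the lowest for Ccl5. Of the 21 measured cytokines and chemokines of a fixed list Cxcl5 was the only member (0 under TMM scaling or on TPM with a pseudocount of 0.05, 2 with a pseudocount of 5). Ccl2 and Csf1 of that list were higher in both transfected libraries, as were 63 of the 11469 measured genes. Ccl5 was the only member among 31 measured interferon-stimulated genes, where 0.968% of all measured genes met the limits. Of the 31, 5 were lower by 0.4 or more after the negative control and 1 after the mimic. Of all measured genes 5.50% and 4.38% were. By the same limit 1 and 5 of the 31 were higher, and the share of measured genes that were higher was not computed.

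Among matrix genes Mmp3, stromelysin-1, a protease that degrades proteoglycans and activates other matrix proteases (Entrez 17392, chr9:7445822-7455975), had a normalized count of 1026 in the wild type, 3148 in the untransfected knockout, 1379 after the negative control and 1518 after the mimic. Both transfected libraries were below 50% of the untransfected knockout, at 43.8% and 48.2%, and the wild type was lower still, at 32.6%. The log2 ratios were -1.19 (-1.28 to -1.10) and -1.05 (-1.14 to -0.96). It was the only member among 26 measured matrix proteases and inhibitors of a fixed list, where 0.968% of all measured genes met the limits. Other proteases in the set, picked after their values were seen, were Htra3, a secreted serine protease, at 2227, 988, 731 and 600, and Adamts15, a metalloprotease, at 205, 58.1, 39.7 and 42.6, in the same order of libraries.

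Small leucine-rich proteoglycans, which bind collagen fibrils, held 2 members of 9 measured, where 0.968% of all measured genes met the limits. This list too was made after the members were known, so its count is a description. Lum, lumican (Entrez 17022, chr10:97565501-97572703), was at 1679 in the wild type, 260 in the untransfected knockout, 119 after the negative control and 153 after the mimic, so that the libraries were spread over more than a 10-fold range with the wild type at the top. Prelp, which anchors basement membranes to connective tissue, was at 17496, 17067, 9744 and 12278. The untransfected libraries were alike for Prelp, and the negative-control library was lower than the mimic library, with a log2 ratio of mimic to negative control of 0.33 (0.30 to 0.37). At 512 TPM in the untransfected knockout, Prelp was the most abundant member after the ribosomal protein gene Rpl41. The medians of the list were -0.29 and -0.12. Fmod, fibromodulin, at -0.49 and -0.12, and Dcn, decorin, at -0.51 and -0.39, were below the limit after the negative control only, and Bgn, biglycan, was at -0.14 and 0.03.

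Of 14 measured genes for making hyaluronan and chondroitin 2 were members, where 0.968% of all measured genes met the limits. The list was made after the members were known, so its count is a description. Has2, the main hyaluronan synthase of fibroblasts, was at 462 in the wild type, 478 in the untransfected knockout, 306 after the negative control and 321 after the mimic. Csgalnact1, which starts chondroitin chains, was at 2032, 1803, 1202 and 1182. For both, the untransfected libraries were close together and the transfected ones lay well below them. The list as a whole did not share this, with medians of -0.21 and 0.13.

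Sod3, the extracellular superoxide dismutase, was at 8020 in the wild type, 3769 in the untransfected knockout, 2399 after the negative control and 2665 after the mimic. Olfml3, a secreted olfactomedin-domain protein, was at 3785, 1783, 1231 and 1178. Sparcl1, a matrix-associated relative of SPARC, was at 87.1, 89.2, 45.3 and 50.6. In each case the pair of transfected libraries was the lowest, while the wild type was above the knockout for Sod3 and Olfml3 and level with it for Sparcl1. None of the 21 measured collagens was a member, which is near the background of 0.968% of all measured genes. The collagen medians were -0.04 after the negative control and 0.18 after the mimic. Of 39 measured matrix glycoproteins and crosslinking genes of a fixed list 1 was a member, Lum, which is near that background too. Fbn2 of that list was higher in both transfected libraries, as were 63 of the 11469 measured genes. The medians of the list were -0.17 and 0.04.

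**Figure D4:**
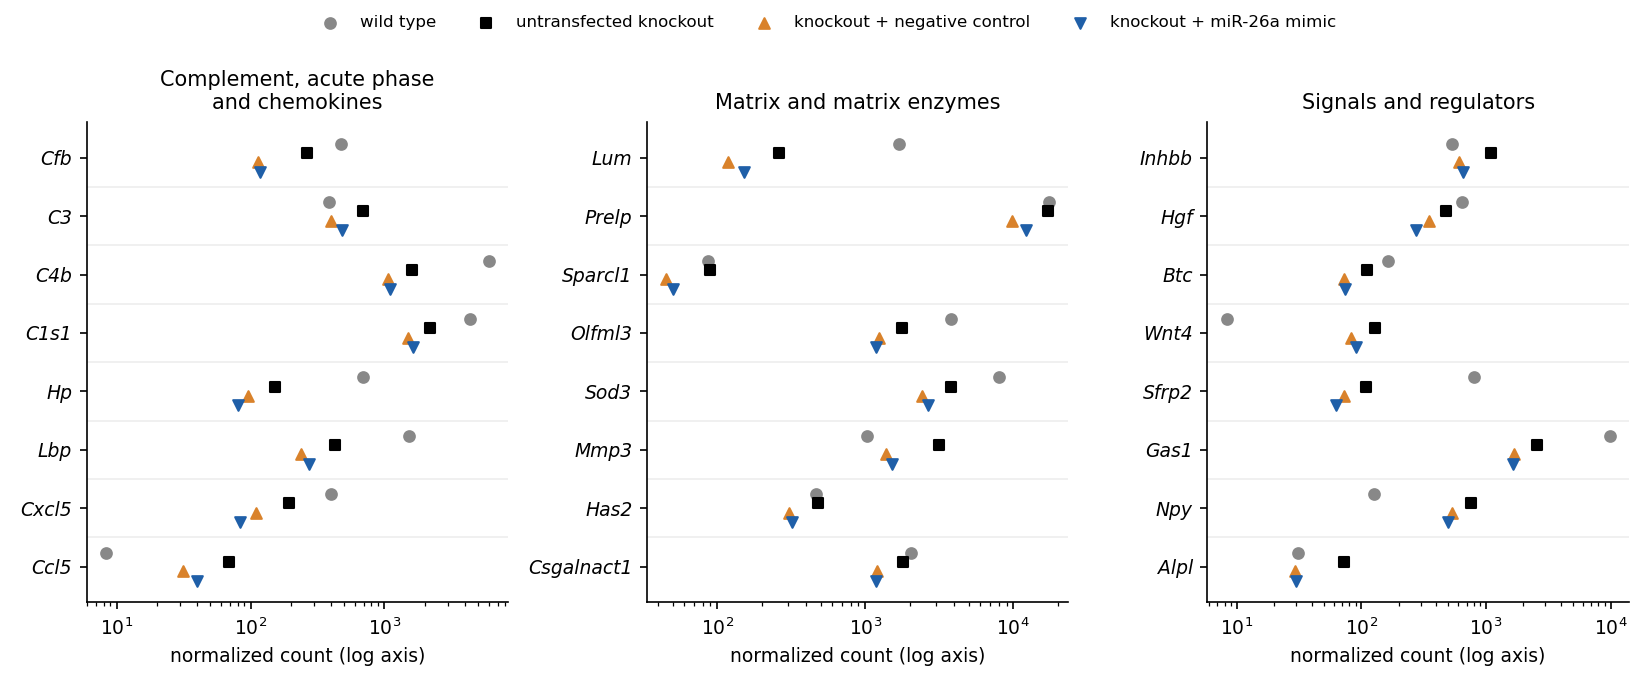
Normalized counts, on a log axis, of 24 members in each of the 4 libraries, with 1 point per library and no replicate. Orange and blue triangles, the transfected libraries, lie left of the black squares, the untransfected knockout, for every gene by choice, while the grey wild-type points lie far to the right for Lum, Sfrp2, Gas1, C4b and Hp and far to the left for Ccl5, Wnt4 and Npy.

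Secreted growth factors gave 3 members of 22 measured, where 0.968% of all measured genes met the limits. The list was made after the members were known, so its count is a description. Inhbb, the subunit of activin B and inhibin B (Entrez 16324, chr1:119415463-119422248), was at 537 in the wild type, 1108 in the untransfected knockout, 604 after the negative control and 653 after the mimic. The untransfected knockout was the only high library, and the wild type was slightly below the transfected pair. Inhba, the subunit of activin A and no member, was at log2 ratios of -0.38 and -0.45, just short of the limit after the negative control.

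Hgf, hepatocyte growth factor, which signals through the receptor Met, was at 638 in the wild type, 476 in the untransfected knockout, 351 after the negative control and 273 after the mimic, with log2 ratios of -0.44 and -0.80, the first of which was -0.37 on the TPM scale, outside the limit. Btc, an EGF-family ligand, was at 165, 111, 73.0 and 74.4. Hgf was lower in each library than in the one named before it, whereas the transfected pair was level for Btc. The other growth factors were not lower together, and the list's medians were -0.06 and 0.17.

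Wnt signalling was represented by 2 members of 12 measured ligands and secreted modulators, where 0.968% of all measured genes met the limits. That list was also made after the members were known, so its count is a description. Wnt4, a ligand, was at 8.30 in the wild type, 129 in the untransfected knockout, 83.1 after the negative control and 90.2 after the mimic. Sfrp2, a secreted Wnt-binding protein, was at 804, 110, 73.0 and 62.5. The wild type was thus lowest for the ligand and highest for the Wnt-binding protein, and the transfected pair was below the untransfected knockout in each. Dkk3 was at -1.49 after the negative control and -0.21 after the mimic, so that it was no member. On the TPM scale the mimic ratio of Wnt4 was -0.36, outside the limit.

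Gas1, a membrane-bound co-receptor for Hedgehog ligands, was at 9853 in the wild type, 2566 in the untransfected knockout, 1666 after the negative control and 1649 after the mimic. Npy, the signalling peptide neuropeptide Y, was at 127, 758, 537 and 498. Gas1 and Npy were opposite in the wild type, the highest and the lowest library, and alike in the transfected pair, at between 64.3% and 70.7% of the untransfected knockout.

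Alpl, tissue-nonspecific alkaline phosphatase, which releases phosphate during mineralization (Entrez 11647, chr4:137741731-137796384), had the lowest ratios of the set. Its normalized counts were 31.1 in the wild type, 72.6 in the untransfected knockout, 29.6 after the negative control and 29.7 after the mimic, so that the untransfected knockout stood apart from 3 nearly equal libraries. With counts this low the intervals were wide, -1.95 to -0.67 and -1.96 to -0.65. Myzap, a protein of cell junctions in heart muscle, had the same form at 37.3, 73.7, 32.3 and 34.7.

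Of 23 measured transcription factors of stromal cells 4 were members, where 0.968% of all measured genes met the limits. Their list was made after the members were known, so its count is a description. Hey1, a repressor downstream of Notch, was at 597 in the wild type, 270 in the untransfected knockout, 155 after the negative control and 199 after the mimic. Hoxa5, a patterning factor, was at 157, 61.2, 31.4 and 40.6. For both the wild type was the highest and the negative control the lowest library. Id4, which blocks the DNA binding of other helix-loop-helix factors, was at 477, 432, 320 and 289, and Msx2, a homeobox factor of limb and bone, at 72.6, 133, 90.5 and 85.3. On the TPM scale Hey1 after the mimic and Id4 after the negative control were each at -0.36, outside the limit. Hoxa9 illustrates a gene outside the set, with ratios of 0.32 after the negative control and -0.82 after the mimic. The list's medians were -0.19 and -0.20, and 0 of the 23 were higher by 0.4 in either transfected library. The share of measured genes that were higher was not computed.

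Further members, named by rank or list, had diverse roles. Slc43a1, an amino acid transporter, was at 73.7 in the wild type, 55.0 in the untransfected knockout, 24.0 after the negative control and 30.7 after the mimic. Hsd11b1, which regenerates active glucocorticoid, was at 38.4, 62.3, 27.7 and 36.7. Ly75, an endocytic receptor, was at 58.1, 121, 61.0 and 65.4. In these 3 the transfected pair stood between 43.7% and 58.9% of the untransfected knockout, but the wild type was above the knockout for Slc43a1 only. Coq8a, needed for coenzyme Q synthesis, was at 105, 91.3, 45.3 and 57.5. Acta1, skeletal muscle actin, was at 92.3, 68.5, 46.2 and 36.7 and was the only measured gene among the skeletal muscle markers, whose sum was 22.8 TPM in the wild type, 9.61 in the untransfected knockout, 5.95 after the negative control and 5.86 after the mimic. The part of muscle RNA in the ratio of Acta1 was not tested.

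Abundant members included Fkbp7, a prolyl isomerase of the endoplasmic reticulum, at 1314 in the wild type, 961 in the untransfected knockout, 686 after the negative control and 674 after the mimic, and Tmem184b, a membrane protein, at 3036, 3159, 2032 and 2329. On the TPM scale the mimic ratio of Tmem184b was -0.395, just outside the limit. Rpl41, which encodes the smallest ribosomal protein, was at 6430, 8805, 6279 and 6100. On the TPM scale its ratios were -0.37 and -0.44, so that it missed the limit after the negative control, and it has near-identical copies in the genome that can share its reads. The 38 measured cytosolic ribosomal protein genes of a fixed list, which does not hold Rpl41, had 0 members. That is near the background of 0.968% of all measured genes.

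Of fixed lists with 19 to 32 measured genes several had 0 members, where 0.968% of all measured genes met the limits, so that a count of 0 in lists of this size is near the background. These were G2/M and S-phase genes (32 measured of each), cholesterol synthesis and uptake (24), lysosome (32), respiratory chain (31), glycolysis and hypoxia (27), contractile genes (19), and the unfolded protein response (20). Of 23 genes of the integrated stress and amino acid response 0 were members, and 4, Cth, Psat1, Slc7a1 and Trib3, were higher in both transfected libraries. Of the 11469 measured genes 63 were higher in both. Of 32 measured published targets of miR-26a 0 were members, which is near the background too. By a ratio of 0.4 or more, 1 of these targets was lower and 3 higher after the negative control, and 4 were lower and 3 higher after the mimic. Of all measured genes 5.50% and 4.38% were lower, and the share that were higher was not computed. Pcdh9 was higher in both, as were 63 of the 11469 measured genes.

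The mimic and the negative-control library were then compared directly within the set. The rule holds their difference under 0.4, so these ratios are partly fixed by it. The mimic was higher than the negative control in 67 members, 64.4%, against 49.6% of all measured genes, and lower in 37. The median log2 ratio of mimic to negative control was 0.07, from -0.40 (Cxcl5) to 0.39 (Hsd11b1). In 16 members the counting interval excluded 0, with the mimic higher in 13, among them Mmp3, Lum, Prelp, C3, C1s1, Sod3 and Hey1, and lower in 3, Hgf, Htra3 and Syt11. The share of all measured genes with such an interval was not computed, so nothing is read from these numbers. All ratios to the untransfected knockout share that library, so for each member described the mimic and negative-control values stand side by side.

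A site for the guide seed, TACTTGA in the transcript's 3' untranslated region (3' UTR, GENCODE M21), was found in 12 members, 11.5% (Clopper-Pearson interval 6.11 to 19.3%), against 11.9% of measured genes. Extended by an A to TACTTGAA, a site was in 8 members, 7.69%, against 5.21%. A site for the passenger seed, AGAATAG, was in 12 members, 11.5%, against 10.0%. The sites of Hgf, which had a lower count after the mimic than after the negative control, are shown with those of Inhbb, Csgalnact1 and Tmem184b, whose intervals included 0 (Inhbb, Csgalnact1) or lay above it (Tmem184b), on the transcript strand with the site in capitals.
Hgf site at chr5:16619082-16619105, plus strand: tcctagaacaacTACTTGAgtgtt
Hgf site at chr5:16619216-16619239, plus strand: atctcctgaagaTACTTGAatgaa
Inhbb site at chr1:119415979-119416002, minus strand: tttatatttttaTACTTGAaatga
Csgalnact1 site at chr8:68357740-68357763, minus strand: tgttgatttgtcTACTTGAgacag
Tmem184b site at chr15:79360864-79360887, minus strand: acataaaaaaaaTACTTGAaaatt
Coordinates are of GRCm38. The log2 ratio of mimic to negative control was -0.36 (-0.59 to -0.14) for Hgf, with 2 sites, 0.11 (-0.04 to 0.27) for Inhbb, -0.02 (-0.14 to 0.09) for Csgalnact1 and 0.20 (0.11 to 0.28) for Tmem184b. Of the 12 members with a site 4 were below 0, with a median of 0.04, and of the 92 without one 33 were, with a median of 0.07. Over all measured genes 57.3% of those with a site and 49.7% of those without were below 0. A match is a description of the letters and not a site of action.

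The wild-type library was not used to choose the members. It was higher than the untransfected knockout by 0.4 or more on the log2 scale in 40 members, 38.5%, where 16.0% of measured genes were, and lower by as much in 32 members, 30.8%, where 17.6% were. The remaining 32 lay within 0.4, 30.8% against 66.4% of measured genes. Members had low counts in the untransfected knockout library, with a median of 141 against 616 over measured genes. Shares among genes of matched count were not computed, so the part of low counts in these differences was not tested. The ratio of wild type to untransfected knockout also shares the latter library with the rule. The median over the members was 0.16, and the range ran from -3.80 (Wnt4, interval -5.20 to -2.93) to 2.86 (Sfrp2, 2.58 to 3.18). The highest after Sfrp2 were Lum at 2.68, Fxyd1 at 2.37 and Hp at 2.16, and the lowest after Wnt4 were Prdm6 at -3.27, Ccl5 at -2.92 and Npy at -2.57. Fxyd1, a regulator of the sodium pump, was at 713 in the wild type, 137 in the untransfected knockout, 81.3 after the negative control and 97.2 after the mimic. Prdm6, a repressor of smooth muscle genes, was at 7.26, 78.9, 56.3 and 50.6.

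Set against the transfected libraries, the wild type was above both in 78 members, below both in 25 and between them in 1, Glrb. The median log2 ratio of wild type to the negative control was 0.75 over the members, and of wild type to the mimic also 0.75, against -0.03 over measured genes in each case. The rule chose the members for low values in the transfected libraries, which raises these ratios and the count of 78 by choice, so nothing is read from their distance to the measured genes. The untransfected knockout was the highest of the 4 libraries in 49 members and the wild type in 55. The rule places the untransfected knockout above both transfected libraries, so these counts only compare it with the wild type. Over all measured genes the wild type was below the untransfected knockout in 52.9%. Of the 32 members lower in the wild type than in the untransfected knockout, 25 had the wild type below the transfected pair too, among them Mmp3, Inhbb, C3, Ccl5, Wnt4 and Npy. In 6, Alpl, Myzap, Hsd11b1, Heph, Rpl41 and Naa10, the wild type was above both transfected libraries and below the untransfected knockout.

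**Figure D5:**
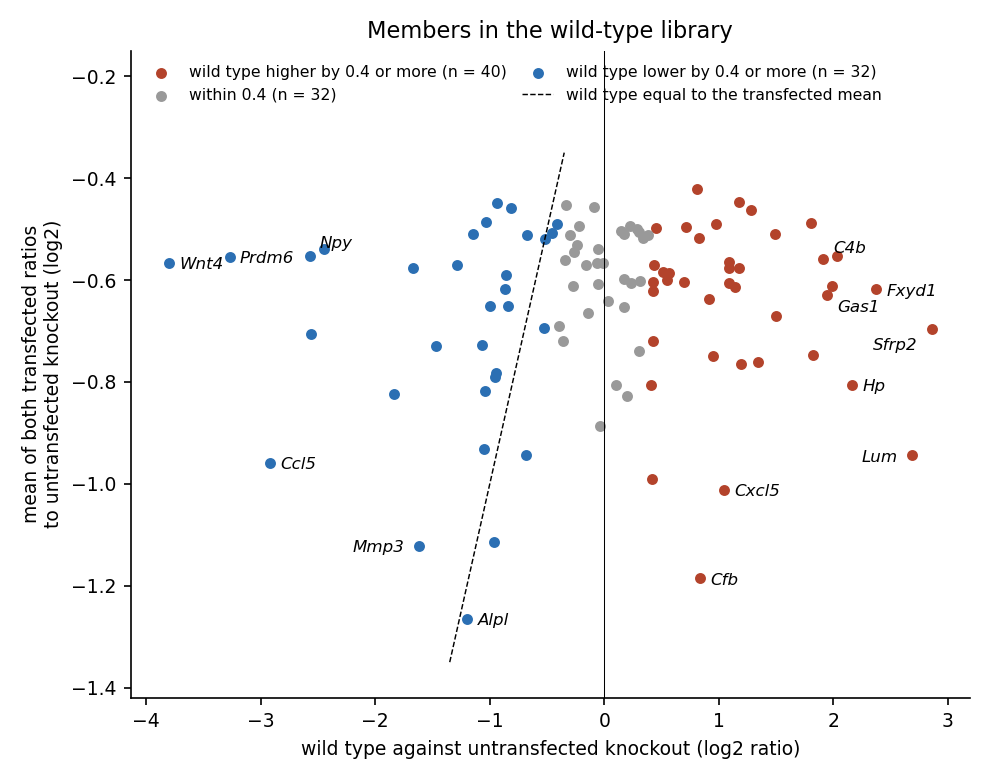
Each point is a member, with the log2 ratio of the wild-type to the untransfected knockout library on the x axis and the mean of the ratios after the negative control and the mimic on the y axis. Red points (40) are higher and blue points (32) lower in the wild type by 0.4 or more, and points left of the dashed line have the wild type below the mean of the transfected libraries.

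The members were summed as a level, leaving out Rpl41, which alone had 4190 TPM in the untransfected knockout library. The other 103 members summed to 4380 TPM in the wild type, 2854 in the untransfected knockout, 1850 after the negative control and 1982 after the mimic. The rule chose them for low values in both transfected libraries, so the lower sums there are by choice. Nothing is read from their distance to the marker sums that follow. Over the same libraries the macrophage marker sum was 23777, 35024, 33776 and 33745 TPM, and the fibroblast marker sum was 24797, 16563, 14738 and 16535 TPM. The fibroblast markers had median log2 ratios of -0.15 after the negative control and -0.10 after the mimic, and the macrophage markers 0.03 and -0.03. Of the 17 fibroblast markers 5 were lower by 0.4 after the negative control and 1 after the mimic. Of all measured genes 5.50% and 4.38% were. The part of these markers in the members' ratios was not tested.

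Members came from shorter genes than the measured genes as a whole, with a median gene length of 16582.5 bases against 24812. The median 3' UTR was 956.5 bases against 1258. Members also had lower counts in the untransfected knockout library, with a median of 141 against 616. Lengths among genes of matched count were not computed, so the part of low counts in these differences was not tested. Chromosome 5 held 10 members of 735 measured genes, chromosome 11 held 10 of 932 and chromosome 16 held 0 of 359. Of all measured genes 0.968% met the limits, and nothing is read from these counts. A RefSeq promoter window (GRCm38.p6, 250 bases before to 50 after the start) was matched for 74 members and 9245 measured genes, with a median GC content of 60.5% and 61%. Members without a window included Cfb, C4b, Hp, Lbp, Cxcl5, Ccl5, Lum, Has2 and Sod3, so that no motif share covers them. The windows of Mmp3, C3 and Sfrp2 are shown because they hold, in capitals, a C/EBP element (TTGCNNAA) or, in Mmp3, also an AP-1 element (TGANTCA).
Mmp3 promoter, chr9:7445572-7445871, plus strand: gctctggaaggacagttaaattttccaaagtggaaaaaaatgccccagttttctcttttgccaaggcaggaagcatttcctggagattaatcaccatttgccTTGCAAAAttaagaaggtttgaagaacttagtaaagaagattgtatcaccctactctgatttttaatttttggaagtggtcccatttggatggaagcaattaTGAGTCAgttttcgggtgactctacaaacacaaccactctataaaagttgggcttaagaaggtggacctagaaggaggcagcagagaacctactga
C3 promoter, chr17:57228087-57228386, minus strand: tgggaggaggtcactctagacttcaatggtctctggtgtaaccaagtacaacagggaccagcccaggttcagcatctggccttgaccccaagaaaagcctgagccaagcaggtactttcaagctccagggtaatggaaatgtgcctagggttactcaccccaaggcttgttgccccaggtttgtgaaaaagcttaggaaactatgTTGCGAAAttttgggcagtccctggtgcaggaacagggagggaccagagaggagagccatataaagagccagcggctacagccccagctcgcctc
Sfrp2 promoter, chr3:83766071-83766370, plus strand: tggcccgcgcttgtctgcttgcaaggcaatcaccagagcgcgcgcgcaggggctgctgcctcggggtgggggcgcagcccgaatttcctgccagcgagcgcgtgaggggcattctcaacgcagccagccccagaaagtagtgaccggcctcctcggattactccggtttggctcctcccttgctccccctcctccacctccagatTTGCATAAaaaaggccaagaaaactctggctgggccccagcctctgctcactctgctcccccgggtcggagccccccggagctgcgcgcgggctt
The C/EBP element began 148 bases before the start in Mmp3 and 45 before it in C3 and Sfrp2, and the AP-1 element 46 before it in Mmp3. Read on both strands, the C/EBP element was in 8 of the 74 windows, 10.8%, against 9.93% of measured genes, and the AP-1 element in 6, 8.11%, against 6.20%.

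The other motifs were read in the same windows, on both strands, so that Cfb, C4b, Hp, Lbp, Cxcl5 and Ccl5 were again not covered. CCAAT was in 48.6% of the members' windows and 43.3% of the measured ones, GGGCGG in 60.8% and 70.3%, CACGTG in 5.41% and 12.1%, and ACGTGC in 4.05% and 9.64%. TCACNCCAC was in 1.35% and 1.40%, TGACGTCA in 1.35% and 3.62%, TGATGNAA in 2.70% and 2.65%, and the NF-kB consensus in 2.70% and 6.19%. The E-box CACGTG and the hypoxia element ACGTGC share letters and can overlap. The Clopper-Pearson intervals over the members were 1.49 to 13.3% for CACGTG, in 4 windows, and 0.844 to 11.4% for ACGTGC, in 3, and each includes the measured share. A match is only a description of these letters.

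A few members are uncertain as single genes. Decimals in the counts, which can arise where reads are divided among genes, were present for 8 members, Ang, C1s1, C4b, Pcdhga6, Syt11, Ugt1a6b, Zfp354a and Zfp781, which is 7.69% against 5.62% of measured genes. Ccdc84, Snx22 and Tlcd1 overlap the abundant genes Rps25, Ppib and Rpl23a on the opposite strand, and without a stated strand setting their reads cannot be told apart. Ang shares its locus and strand with Rnase4.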

How the data were processed

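RNA sequencing of 4 cultures was deposited as a gene table, and each culture's group comes from its label. The submitters' processing notes list FastQC, HISAT and Bowtie2 and the mouse builds mm10 and GRCm38.p6, with no version or role. The counting tool, annotation and strand setting were not given in the sources used here.

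Per the file headers the table holds unscaled read counts, which include decimals and so are estimated counts. The authors also deposited TPM and FPKM, and FPKM were not used. The normalized counts deposited by the authors are a signal: each estimated count was rounded up, then divided by its library's size factor, 0.964 for wild type and for knockout, 1.08 for negative control and 1.01 for mimic. The authors' deposited table of comparisons (PoissonDis, per the file headers) was not used. Spreadsheet dates in place of 26 symbols were restored through Entrez identifiers, and 16369 identifiers matched RefSeq.

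Log2 ratios used normalized counts plus 1. Intervals at 95% are exact conditional binomial (Clopper-Pearson) from estimated counts rounded to whole numbers and the size factors. Reads are not independent molecules, so intervals hold counting error alone. The step was tested on simulated counts drawn with counting error alone, so that test says nothing about variation between cultures. With 1 library per group no test was run, and lists are described by counts and medians. Motifs and 3' UTR sites were searched in RefSeq windows and in the longest GENCODE M21 3' UTR.

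Members were named when among the 12 lowest mean ratios, the 8 highest TPM in the untransfected knockout, the 4 lowest of a list, the 4 highest or 4 lowest wild-type ratios, the 3 nearest the limit on either side, or at the end of a range. Other names were chosen after their values were seen. The members and all lists were chosen with earlier results of these data known, and 6 lists (complement and acute phase, proteoglycans, hyaluronan and chondroitin, growth factors, Wnt, stromal transcription factors) and 2 motifs (C/EBP, NF-kB) were added after the members were seen. Alternatives were TMM and DESeq2 scaling, TPM, other pseudocounts, count minimums, ratio limits and gaps. Python 3.11.15 (pandas 2.3.3, numpy 2.4.6, matplotlib 3.10.9, scipy 1.17.1) and R 4.3.3 (DESeq2 1.42.0, edgeR 4.0.16) were used.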

Additional observations from a re-analysis of the deposited data

How the results depend on the processing

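With 1 library per group no library could be left out. No paired analysis was possible because no group had a second library. Of the values recomputed, 739 stayed within the counting interval or, for counts, within 1.5 times of the reported one, 23 moved further and 0 changed sign. A ratio can stay within its interval and still pass the limit of -0.4: of the 39 named members 10 did so on TPM in at least 1 ratio (Arhgef28, Cnrip1, Hey1, Hgf, Id4, Prdm6, Rpl41, Tmem184b, Wnt4, Zfp354c), 7 on TPM with a pseudocount of 0.05, 1 (Arhgef28) with a pseudocount of 5, and 0 under the other scalings and filters. TMM scaling gave 105 genes by the rule, 102 of them members, DESeq2 size factors 103, all members, and a pseudocount of 5 or 0.1 gave 105 and 104. On the TPM scale with a pseudocount of 1, 55 genes met the rule, 50 of them members, with 382 genes lower after the negative control and 286 after the mimic. With a pseudocount of 0.05 on TPM, chosen after seeing the data, 86 met it, 77 of them members, and the cause of the remaining difference was not tested. A limit of -0.5 left 57 genes and one of -0.3 gave 212. A minimum count of 100 left 71 members, of which 21 were lower in the wild type by 0.4 or more. A gap of at most 0.3 left 83, and a minimum of 50 in any library gave 124. Cxcl5 left the set under TMM scaling, its ratios being at the edge of the 0.4 gap. On TPM 1 Wnt gene and 2 of the stromal transcription factors met the rule, and Prelp had ratios of -0.77 and -0.43. Depth limits the 64 members under a count of 200, whose intervals were wide.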

Other observations

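Other members, chosen after their values were seen, add a few further groups. Genes known from muscle and connective tissue included Mustn1, a nuclear protein of the musculoskeletal system, at a normalized count of 200.2 in the wild type, 638 in the untransfected knockout, 402 after the negative control and 455 after the mimic. F13a1, the catalytic subunit of clotting factor XIII, which macrophages also express, was at 24.9, 140, 97.9 and 94.2. In both, the wild type was the lowest and the untransfected knockout the highest library.

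Receptors and channels were present as well. Cacna1g, a T-type calcium channel, was at 913 in the wild type, 484 in the untransfected knockout, 279 after the negative control and 346 after the mimic. Fgfr2, a fibroblast growth factor receptor, was at 453, 276, 196 and 195, and Adra1b, an alpha-1 adrenergic receptor, at 68.5, 134, 72.0 and 82.3. The transfected pair was the lowest for the channel and the growth factor receptor, and for the adrenergic receptor the wild type lay slightly below that pair. Islr and Igsf10, secreted or membrane proteins with immunoglobulin domains, were at 4536, 1618, 1062 and 1214 and at 8117, 1988, 1250.5 and 1466. Both had the wild type far above the knockout libraries.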
